A study of Mus musculus with 11 samples.

Results

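The genes that encode the subunits of the glutamate and GABA receptors were chosen by gene symbol and comprised 45 of the 24411 genes counted. They were 4 AMPA, 7 NMDA and 5 kainate receptor genes, 8 metabotropic glutamate receptor genes, 19 GABA-A receptor genes and 2 GABA-B receptor genes. They were counted in RNA from the corpus callosum, a tract of myelinated axons that was dissected whole, and from primary neurospheres, balls of stem and progenitor cells that grow in suspension. The callosum gave 2 libraries labelled Bmal1-/- and 3 labelled wild type, taken directly from mice aged 8 to 10 weeks. The neurospheres gave 3 libraries of each genotype. They were grown from the subventricular zone (SVZ) of mice of the same ages and genotypes, in a stem cell medium that held EGF at 20 ng/ml and heparin at 2 ug/ml, over 1 week. BMAL1, listed under the symbol Arntl, is a transcription factor of the circadian clock. The labels give neither strain nor time of collection, do not give the deleted exons, and do not tell whether libraries came from separate animals or cultures. P-values therefore measure only how far these libraries scatter, in part perhaps for technical reasons.

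Glutamate carries most fast excitation in the brain and GABA most fast inhibition. AMPA, NMDA and kainate receptors are ion channels built from 4 subunits, GABA-A receptors are chloride channels built from 5, and metabotropic glutamate and GABA-B receptors signal through G proteins. Subunit choice sets how a channel conducts, how long it stays open and where in the membrane it sits. White matter is not free of these receptors: astrocytes and cells of the oligodendrocyte lineage carry several of them, and neural progenitors of the SVZ respond to both transmitters.

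Gene counts summed to between 17450270 and 19717848 per library. Arntl itself stood at 32.6 and 40.8 counts scaled to library size (CPM) in the callosum libraries labelled Bmal1-/- and at 33.0 to 39.7 CPM in wild-type callosum. In neurospheres it stood at 40.5 to 48.2 CPM under Bmal1-/- and 37.9 to 48.8 CPM under wild type. Reads summed over a gene cannot reveal that some exons are missing, so the genotype labels stay unchecked by it, and directions below are those of the libraries so labelled. The 12 marker genes of mature neurons summed to between 16890 and 23370 CPM in callosum and 248 to 341 CPM in neurospheres. Those of neural stem and progenitor cells summed to 238 to 375 CPM in callosum and 3707 to 4725 CPM in neurospheres. Those of cortical excitatory neurons summed to 4007 to 5863 CPM in callosum and 189 to 331 CPM in neurospheres, and those of striatal neurons to 1429 to 4369 and 112 to 214 CPM. The callosum dissections thus held neuronal RNA, including that of cortical and striatal markers, beside that of glia. Callosum levels below are those of the whole dissection, not of white matter glia alone. Fewer cells of a type and less RNA per cell cannot be told apart in such bulk samples.

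Per kilobase of transcript, the callosum held most counts for Grin1, the subunit that every conventional NMDA receptor needs. Its level was 397 CPM per kilobase in callosum labelled Bmal1-/- and 402 in wild type. Grik5, a kainate subunit that works with a partner, followed at 217 under Bmal1-/- and 208 in wild type. The GABA-B gene Gabbr1 stood at 138 under Bmal1-/- and 142 in wild type, and Gabbr2 at 104 under Bmal1-/- and 93.5 in wild type. In neurospheres the order was another. Gabbr1 led at 57.5 CPM per kilobase under Bmal1-/- and 48.7 under wild type, before Grik5 at 38.6 under Bmal1-/- and 39.7 under wild type. Next came Grm5, a receptor coupled to calcium release, at 23.7 under Bmal1-/- and 27.4 under wild type. Grm3, a receptor that lowers cyclic AMP and is known from astrocytes, stood at 20.2 under Bmal1-/- and 18.7 under wild type. Gabra6, Gabrp and Gabrr3 were listed at 0 in every library. A count of 0 allows up to 3 counts of a library (counting error only), or 0.152 to 0.172 CPM before the TMM scaling of printed levels. On the printed scale 3 counts stood at 0.133 CPM in neurosphere replicate 1 and 0.210 CPM in callosum replicate 2, both labelled Bmal1-/-. Grm6 and Gabrr1 did not exceed 0.133 CPM in any library.

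**Figure D1:**
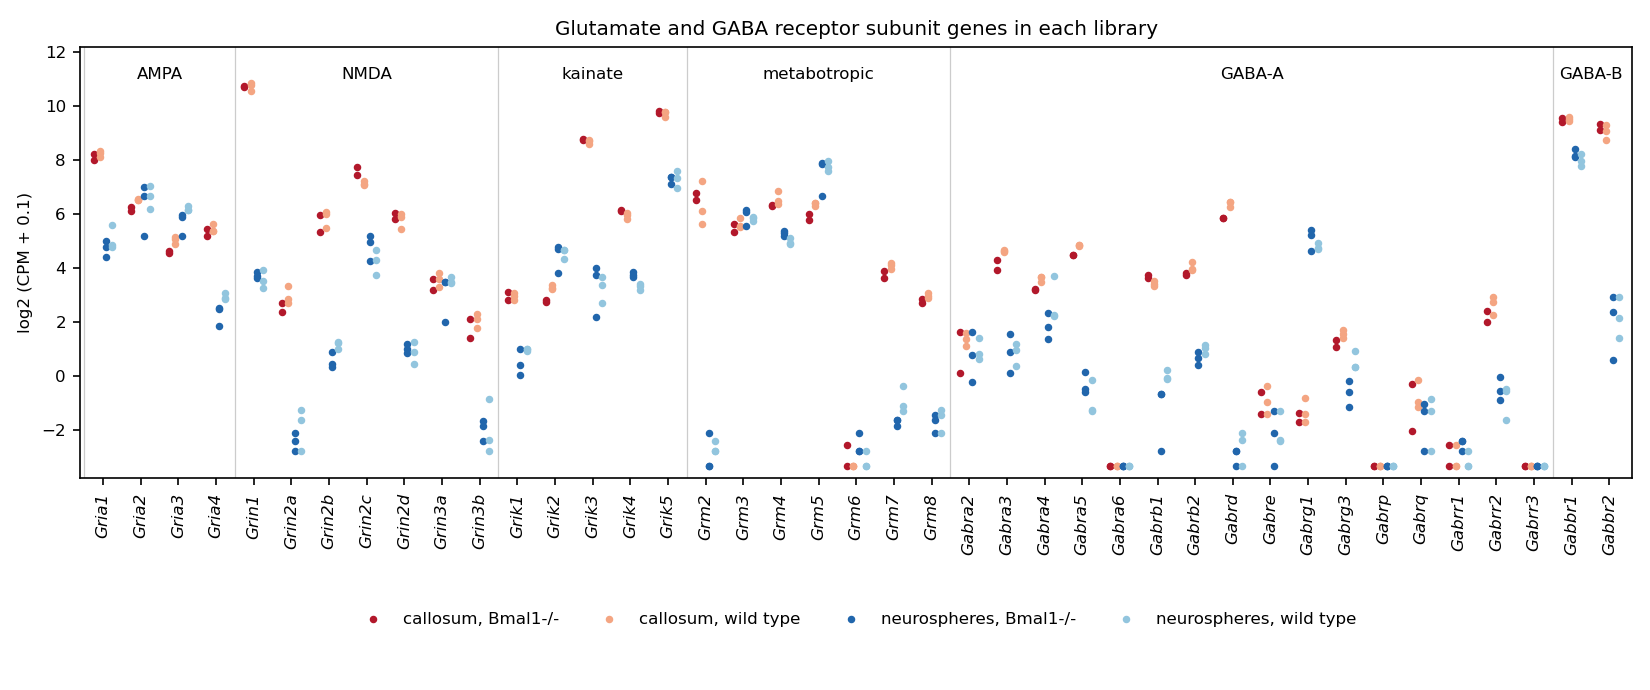
Level of 41 receptor genes in each of the 11 libraries, as log2 of CPM plus 0.1, with 1 point per library and genes grouped by receptor family along the horizontal axis. Most genes lie higher in the callosum libraries (red tones) than in the neurosphere libraries (blue tones), with Gabrg1 the clearest exception.

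Between the wild-type sources most receptor genes were higher in callosum. Of the 38 tested, 33 were called (edgeR quasi-likelihood test, adjusted p under 0.05), 29 higher and 4 lower. Of all 14733 genes tested 85.8% were called, 42% higher and 43.8% lower. The median log2 fold change of the 38, callosum over neurospheres, was 2.99, against -0.06 over all genes tested. By family, 6 of 7 NMDA genes, 10 of 13 tested GABA-A genes, 5 of 7 tested metabotropic genes, 4 of 5 kainate genes, both GABA-B genes and 2 of 4 AMPA genes were called higher. The libraries labelled Bmal1-/- gave 30 higher and 4 lower of 38, and a median of 3.01. There 72.6% of all 14883 genes tested were called, 35.1% higher and 37.5% lower. Members that passed a filter on low counts through the callosum alone had to differ, so these counts describe the genes tested and are not support for a difference of the families. Either oligo dT selection or rRNA depletion preceded sequencing, and no label gives the choice for a library, so a difference in preparation cannot be told apart from source.

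The largest differences belonged to genes almost without reads in neurospheres. Grm2, a presynaptic receptor of neurons, stood at 151, 49.1 and 68.6 CPM in wild-type callosum, against 0.0447, 0.0452 and 0.0887 CPM in wild-type neurospheres. Gabrd, the delta subunit of GABA-A receptors outside synapses, stood at 88.5, 86.7 and 76.0 CPM in wild-type callosum, against 0, 0.0904 and 0.133 CPM in wild-type neurospheres. For both, the neurosphere libraries held 0 to 3 reads each, so the size of the fold depends on how a few reads are handled. The fitted log2 fold changes were 10.41 ± 0.68 for Grm2 (SE, adjusted p = 3.89e-07 by edgeR) and 10.02 ± 0.29 for Gabrd (4.48e-09).

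Grin1 and Gabbr2 also had large folds. Grin1 (chromosome 2, 25291177 to 25319187, GRCm38) stood at 1888, 1506 and 1762 CPM in wild-type callosum, against 9.52, 11.3 and 15.2 CPM in wild-type neurospheres. Its log2 fold change was 7.18 ± 0.22 (SE, adjusted p = 5.3e-09 by edgeR). A transcript on the opposite strand, Grin1os, overlaps it, and as the counts ignore strand, reads over the shared stretch cannot be told apart. Gabbr2, the GABA-B subunit that couples to the G protein, stood at 639, 436 and 538 CPM in callosum and at 2.55, 4.34 and 7.54 CPM in neurospheres, a log2 fold change of 6.82 ± 0.36. Its partner Gabbr1, which binds GABA, differed far less, by 1.56 ± 0.13, with 779, 748 and 711 CPM in callosum against 297, 219 and 251 CPM in neurospheres.

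Gabrg1, a gamma subunit of GABA-A receptors known from glia, went the other way. It stood at 0.278, 0.470 and 0.208 CPM in wild-type callosum, against 26.3, 30.8 and 26.5 CPM in wild-type neurospheres, a log2 fold change of -6.40 ± 0.24 (SE, adjusted p = 1.41e-08 by edgeR). Under Bmal1-/- its callosum level was 0.282 and 0.210 CPM and its neurosphere level 24.95, 37.7 and 42.2 CPM, a log2 fold change of -7.09 ± 0.45 (edgeR adjusted p = 3.1e-05). The gene lies on chromosome 5 (70751047 to 70842617) beside 3 other GABA-A genes, Gabra2, Gabra4 and Gabrb1. These did not share its direction between the wild-type sources. Gabrb1 was higher in callosum by 3.54 ± 0.21, and Gabra2 (0.42 ± 0.30, edgeR adjusted p = 0.207) and Gabra4 (0.71 ± 0.38, 0.103) did not pass. Gabra4 and Gabrb1 overlap on opposite strands. As the counts ignore strand, reads over the shared stretch cannot be assigned to either, and those set aside as ambiguous count for neither.

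Other genes called higher in wild-type callosum spread over the families. Of the ion channels for glutamate they were Gria1 (log2 fold change 3.14), Gria4 (2.55), Grin2a (5.31), Grin2d (4.99), Grin2b (4.78), Grin3b (4.38), Grin2c (2.88) and the kainate genes Grik3 (5.40), Grik4 (2.66), Grik5 (2.41) and Grik1 (2.04). Grik3 for example stood at 385, 415 and 430 CPM in wild-type callosum, against 6.44, 10.3 and 12.8 CPM in wild-type neurospheres. Of the metabotropic genes they were Grm7 (5.24), Grm8 (5.00) and Grm4 (1.62), all of the group that damps transmitter release. Of the GABA-A genes they included Gabra5 (5.90), Gabra3 (3.83), Gabrr2 (3.71), Gabrb2 (3.10) and Gabrg3 (1.06). Grm3, Gria2 and Grin3a did not pass. Grm3 stood at 45.7, 57.3 and 47.2 CPM in callosum, against 58.4, 59.3 and 53.1 CPM in neurospheres (-0.17 ± 0.12, adjusted p = 0.197 by edgeR). Gabre and Gabrq, each below 1 CPM in every library, were not tested, nor were the 5 genes at or near 0.

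The other genes called lower in callosum were Grm5, Grik2, a kainate subunit, and Gria3, an AMPA subunit. Grm5 stood at 85.1, 86.1 and 78.4 CPM in wild-type callosum, against 250, 216 and 195 CPM in wild-type neurospheres, a log2 fold change of -1.39 ± 0.12 (SE, adjusted p = 2.26e-06 by edgeR). Grik2 stood at 9.24, 10.3 and 9.42 CPM in wild-type callosum, against 20.0, 25.4 and 25.2 CPM in wild-type neurospheres (-1.27 ± 0.15). Gria3 stood at 33.3, 35.7 and 29.6 CPM in wild-type callosum, against 79.5, 70.4 and 71.5 CPM in wild-type neurospheres (-1.15 ± 0.11). In the libraries labelled Bmal1-/- the values were -1.64 ± 0.40 for Grm5, -1.70 ± 0.35 for Grik2 and -1.10 ± 0.29 for Gria3. The calls of Grm5 and Gria3 there ended when either callosum library was left out, with edgeR adjusted p of 0.0792 and 0.0778 without replicate 1 and 0.0565 and 0.0919 without replicate 2. The directions of these 3 genes, but not that of Gabrg1, turned with a correction for base content that is described next.

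Between the sources the fold change of a gene moved with the GC content of its transcript. In 5 bins of equal size from lowest to highest GC content, the median log2 fold change of all genes between wild-type sources was -2.35, -0.97, -0.11, 0.81 and 1.62. Across 14210 genes, which are not independent replicates and share their libraries, Spearman's rho was 0.570, and across the 38 receptor genes it was 0.453. An offset fitted in each library on transcript GC content, which sets the typical gene of every GC content to the same level in both sources, was therefore added after the data were seen. With it, Grm5 was higher in wild-type callosum by 0.60, Grik2 by 1.75 and Gria3 by 1.49, and in the libraries labelled Bmal1-/- the values were 0.37, 1.33 and 1.55. Gabrg1 stayed lower, at -2.91 in wild type and -3.62 under Bmal1-/-. Gria2, an AMPA subunit of low GC content, stood at 3.10 with the offset and -0.12 without it, and Grm4, of high GC content, at -0.45 with it and 1.62 without it. Under Bmal1-/- Grm4 stood at -0.97 with the offset and 1.05 without it, and was called lower with it in both genotypes (edgeR adjusted p = 0.00336 under Bmal1-/- and 0.0269 in wild type). Genes called higher in wild-type callosum with the offset alone were Gria2, Gabra2 (3.35), Gabra4 (2.78) and Grm3 (0.46, edgeR adjusted p = 0.00275), whose sign turned. Under Bmal1-/- the calls of Grik5 (0.47 with the offset, 2.51 without) and Grin2c (0.69 with, 2.80 without) ended, with edgeR adjusted p of 0.107 and 0.125. Over the 38 genes the offset gave 31 higher and 2 lower under Bmal1-/-, where 31.2% of all genes were called higher and 31.6% lower, and 35 and 2 in wild type, where 39.6% and 40.4% were. Whether the dependence on GC content comes from the libraries or from the genes the tissues use was not tested.

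Grik1, Grik2 and Grik3 give an example of base content that differs over a short stretch where their proteins do not. The third membrane segment is the best conserved stretch of the ionotropic glutamate receptors. Over the 16 AMPA, NMDA and kainate genes, 9 of the 20 positions of the stretch encode the same residue in every gene. Grik1, Grik2 and Grik3 encode the same 20 residues with different codons, printed here from the coding strand of GENCODE M21 transcripts (build GRCm38) with every G and C in capitals.
Grik1: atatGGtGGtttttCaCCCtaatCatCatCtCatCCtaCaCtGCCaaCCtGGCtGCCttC
Grik2: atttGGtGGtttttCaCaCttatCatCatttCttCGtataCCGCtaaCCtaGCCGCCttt
Grik3: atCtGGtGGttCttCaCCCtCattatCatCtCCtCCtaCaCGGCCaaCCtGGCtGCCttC
G and C made up 46.7%, 40% and 53.3% of these 60 bases in the 3 genes, and 47.9%, 37.9% and 54.2% of their whole transcripts. The log2 fold changes between the wild-type sources stood in the same order as base content, 2.04 for Grik1, -1.27 for Grik2 and 5.40 for Grik3. With the GC offset they were 2.61, 1.75 and 4.49. Of the other kainate genes, Grik4 (52.2%) stood within that order at 2.66. Grik5 did not: at 61.7% the richest in G and C, it had a log2 fold change of 2.41, below Grik4 and Grik3. Gria1 to Gria4 also share their residues there, and their stretches held 48.3%, 50%, 45% and 43.3% G and C. Their log2 fold changes of 3.14, -0.12, -1.155 and 2.55 stood in another order. By whole transcript, at 48.5%, 36.8%, 39.8% and 44.3%, only Gria2 and Gria3 stood out of order. Of Grin2a to Grin2d, which share residues too, Grin2c had the smallest fold at 62.1% of the transcript and Grin2a the largest at 44.8%.

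**Figure D2:**
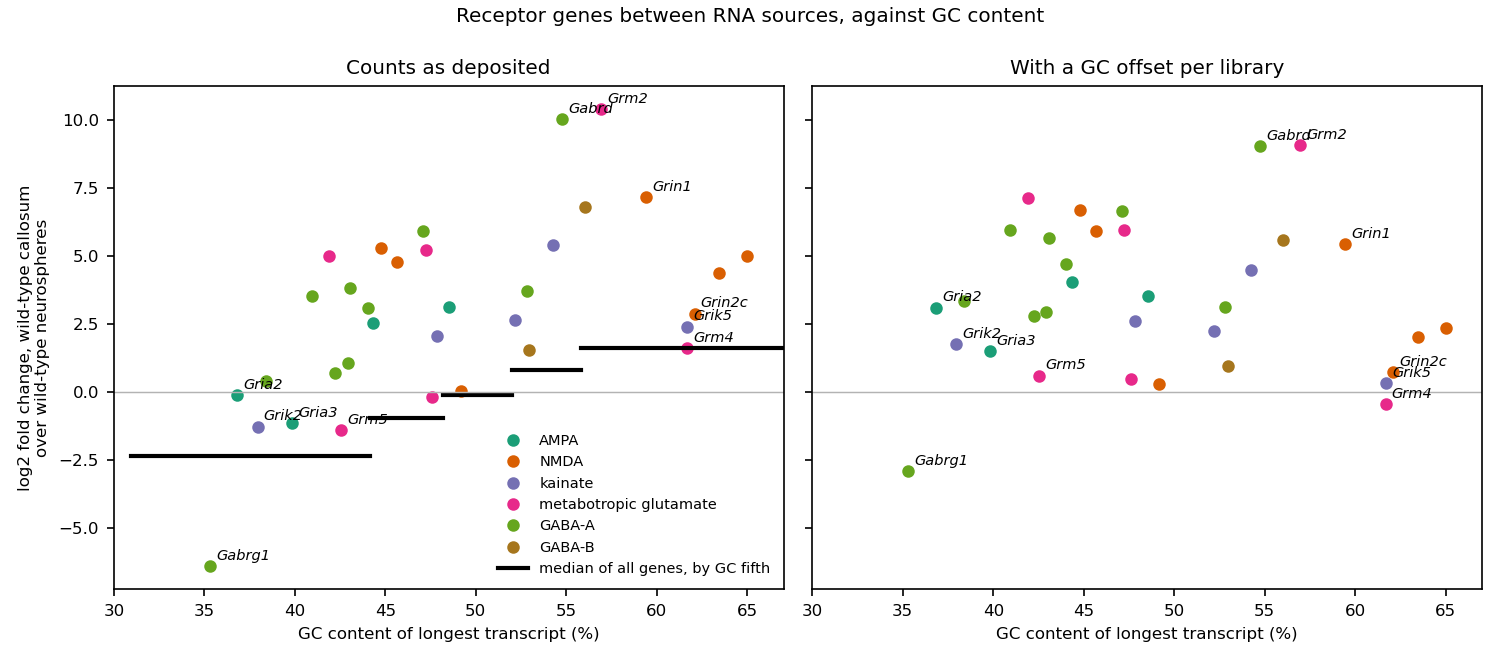
Log2 fold change of 34 tested receptor genes between wild-type sources (callosum over neurospheres, vertical axis) against the GC content of its longest transcript in percent, from the counts as deposited (left) and with a GC offset per library (right). Black bars on the left give the median of all genes in each of 5 bins of GC content, which climbs to 1.62 in the highest bin, and Gabrg1 is the 1 gene well below 0 on the right.

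Subunit shares give the make-up of each family within a library, as counts per kilobase of the longest transcript. Means are given with their SD, over 2 libraries in callosum labelled Bmal1-/- and 3 in each other group. The leading AMPA gene of callosum was Gria1, which took 72.3% ± 0.406 under Bmal1-/- and 69.9% ± 1.38 in wild type. That of neurospheres was Gria3, which took 42.2% ± 4.21 under Bmal1-/- and 44.7% ± 2.91 in wild type. This lead depends on the transcript lengths used. In CPM Gria2 was higher in neurospheres, with means of 89.9 against 52.7 for Gria3 under Bmal1-/- and 103 against 73.8 in wild type. Per kilobase Gria2 also led in Bmal1-/- replicate 3, at 42.05% against 38.05%. Among NMDA genes of callosum Grin1 took 87.5% ± 1.11 under Bmal1-/- and 89.9% ± 0.328 in wild type. In neurospheres its share was 29.9% ± 6.16 under Bmal1-/- and 31.8% ± 0.514 in wild type, and Grin2c, a subunit known from cerebellar granule cells and glia, took more. The share of Grin2c was 8.87% ± 1.04 (Bmal1-/-) and 6.50% ± 0.520 (wild type) in callosum, against 55.0% ± 3.99 (Bmal1-/-) and 44.4% ± 4.87 (wild type) in neurospheres.

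Grm5 led the metabotropic genes of neurospheres, at 43.6% ± 8.58 under Bmal1-/- and 51.5% ± 2.87 in wild type, but took 10.3% ± 0.445 (Bmal1-/-) and 13.2% ± 1.33 (wild type) in callosum. Among GABA-A genes of callosum Gabrd took 26.9% ± 1.92 under Bmal1-/- and 30.8% ± 1.44 in wild type. In neurospheres Gabrd held 0.0723% ± 0.0655 under Bmal1-/- and 0.182% ± 0.170 in wild type. Gabrg1 took 44.6% (Bmal1-/-) and 35.6% (wild type) there. Gabbr1 held 57.0% ± 1.13 of the GABA-B counts in callosum under Bmal1-/- and 60.5% ± 4.23 in wild type. In neurospheres it held 98.6% ± 0.970 under Bmal1-/- and 98.3% ± 0.945 in wild type, so that Gabbr2, without which GABA-B receptors do not reach the surface, made up little of the pair.

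Shares were tested for genes that led a family in either wild-type source, chosen from these same libraries. A difference between sources was thereby favoured in advance. All 10 shares tested differed, and their p-values describe these shares and are not support for a difference of the families. An exact permutation test, two-sided, with source labels permuted within genotype (200 arrangements, smallest possible p = 0.005) gave an adjusted p of 0.00556 for 9 shares and 0.015 for Grm4. Averaged over genotypes, callosum minus neurospheres, Grin1 was higher by 57.9 points and Gria1 by 50.9, and the shares of Grin2c, Gabbr1, Gria3 and Grm5 fell by 42.0, 39.7, 36.0 and 35.7 points. The smallest shifts were those of Grik5 and Grm4. The share of Grik5 fell by 9.07 points, with 77.4% (Bmal1-/-) and 77.8% (wild type) in callosum, against 86.2% (Bmal1-/-) and 87.2% (wild type) in neurospheres. That of Grm4 was higher by 10.3 points. Members of a family differ in GC content, from 39.8% in Gria3 to 48.5% in Gria1 for example, so its part in these shifts was not tested.

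**Figure D3:**
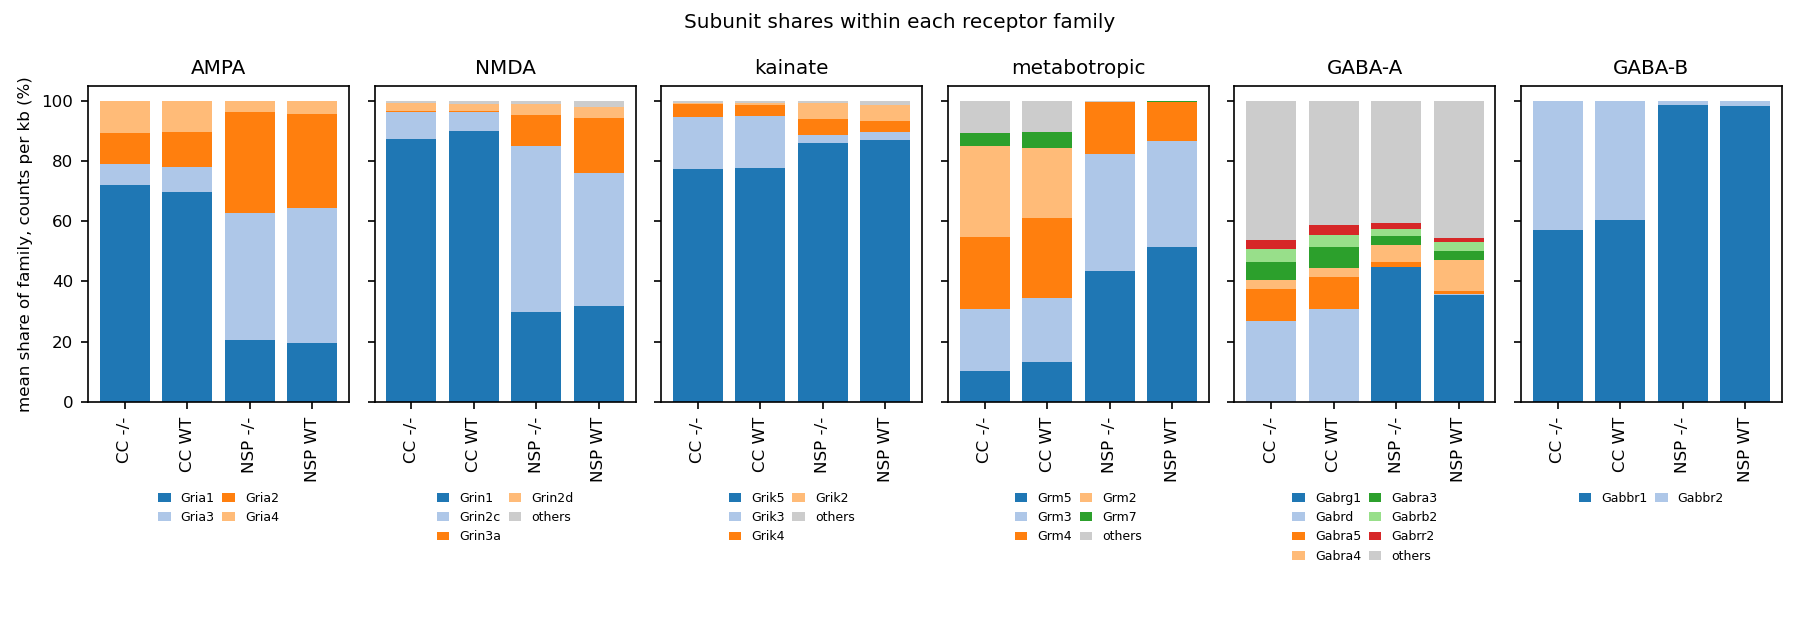
Mean share of each subunit gene in its receptor family, in percent of counts per kilobase (vertical axis), for callosum (CC) and neurosphere (NSP) libraries labelled Bmal1-/- and wild type (WT), with genes that never reach 3% of a family pooled as others together with genes that are not reported here. Gria1, Grin1 and Gabrd fill much of their families in callosum, and Gria3, Grin2c and Gabrg1 in neurospheres.

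Between genotypes in the callosum no receptor gene passed. Gabrg1 joined the 7 genes too low to test there. Of 37 tested, 0 were called by edgeR, where 0.909% of all 14198 genes tested were called. At an unadjusted p under 0.05 there were 10 of 37 (27%), where 13.9% of all genes had one. DESeq2 called 2, Gabrd and Grin2c, and edgeR with no filter on low counts called Gabrd. Both settings also called more genes in total than the main test did, with counts given further below. The median log2 fold change, Bmal1-/- over wild type, was -0.18, with 27 of 37 below 0, against -0.01 over all genes tested. Both Bmal1-/- libraries lay below all 3 wild-type libraries in 15 genes (40.5%, where 18.7% of all genes did) and above them in 3 genes (8.11%, where 13.7% did). The balance rested on 1 library. Without Bmal1-/- replicate 2 the median was -0.00, with 20 of 39 genes below 0, and without replicate 1 it was -0.26.

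The smallest p in callosum belonged to Gabrd (chromosome 4, 155384979 to 155398098). It stood at 57.9 and 57.3 CPM in callosum labelled Bmal1-/-, against 88.5, 86.7 and 76.0 CPM in wild type. The groups did not overlap, and the log2 fold change was -0.52 ± 0.11 (SE, adjusted p = 0.0765 by edgeR). The adjusted p was 0.0145 with DESeq2, 0.0437 with no filter and 0.768 in a single model of all 11 libraries. Grin2c (chromosome 11, 115249169 to 115267297) went the other way, with 177 and 217 CPM under Bmal1-/-, against 149, 137 and 138 CPM in wild type, again without overlap. Its log2 fold change was 0.49 ± 0.11 (SE, adjusted p = 0.0941 by edgeR, and 0.0148 with DESeq2). The range over all alternatives was 0.0145 to 0.768 for Gabrd and 0.0148 to 0.898 for Grin2c.

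Grm5, Gabra3, Gria3 and Gria2 had the next smallest p, and none passed. Grm5 stood at 55.4 and 64.6 CPM under Bmal1-/-, against 85.1, 86.1 and 78.4 CPM in wild type (log2 fold change -0.46 ± 0.11, SE, edgeR adjusted p = 0.117). Gabra3, an alpha subunit, stood at 19.4 and 15.1 CPM under Bmal1-/-, against 25.3, 24.9 and 24.0 CPM in wild type (-0.51 ± 0.15, 0.189). Gria3 stood at 24.9 and 23.5 CPM under Bmal1-/-, against 33.3, 35.7 and 29.6 CPM in wild type (-0.42 ± 0.13, 0.208). Gria2, the subunit that keeps calcium out of AMPA channels, stood at 77.4 and 70.2 CPM under Bmal1-/-, against 92.5, 94.9 and 92.9 CPM in wild type (-0.33 ± 0.10, 0.214). In each of these 4 genes every library labelled Bmal1-/- lay below every wild-type library. These genes, Gabrd and Grin2c were chosen by p from the same libraries, so the lack of overlap is no further support.

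By family, all 4 AMPA genes had a log2 fold change below 0 (median -0.23), as had 10 of 12 tested GABA-A genes (median -0.32), 6 of 7 tested metabotropic genes (-0.19) and 5 of 7 NMDA genes (-0.17). Of the 5 kainate genes 4 lay above 0 (median 0.07), with Grik2 at -0.50 ± 0.16 the exception, and the GABA-B genes stood at -0.03 and 0.17. The sign of the NMDA median was not stable: it was 0.02 with a length offset and 0.01 and 0.02 without Bmal1-/- replicates 1 and 2. Without replicate 2 the AMPA median was -0.12 and the GABA-A median -0.18. Grin1 itself stood at 1680 and 1711 CPM under Bmal1-/-, against 1888, 1506 and 1762 CPM in wild type, overlapping groups with a log2 fold change of -0.00 ± 0.12.

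Markers of other tissue moved between the same libraries. All 12 markers of striatal neurons had a log2 fold change below 0, with a median of -1.004 and no call by edgeR. They summed to 1429 and 1755 CPM under Bmal1-/-, against 1596, 4369 and 2506 CPM in wild type, highest in replicate 2. All 5 tested choroid plexus markers (median -1.54) and all 5 tested ependymal markers (-0.61) were below 0 as well, also with no call. The choroid plexus markers summed to 14.4 and 10.6 CPM under Bmal1-/-, against 23.4, 47.5 and 183 CPM in wild type, and the ependymal markers to 101 and 125 CPM under Bmal1-/-, against 78.4, 131 and 159 CPM in wild type. Without wild-type replicate 2 the striatal median was -0.47, and the receptor median -0.17. The 12 markers of mature neurons summed to between 19690 and 21380 CPM under Bmal1-/- and between 16890 and 23370 CPM in wild type, with a median log2 fold change of 0.06, and the 9 of cortical excitatory neurons had a median of 0.03. Of the 9 astrocyte markers, Gfap was called higher and Aldh1l1 lower, and all 9 summed to 4537 and 4895 CPM under Bmal1-/-, against 3012 to 3263 CPM in wild type. Gfap carried that difference, at 1877 and 1976 CPM under Bmal1-/-, against 360 to 496 CPM in wild type. The other 8 summed to 2660 and 2918 CPM under Bmal1-/-, against 2587 to 2814 CPM in wild type, which overlap, and the median log2 fold change of the 9 was 0.05, with 4 below 0. Fold changes also moved with GC content here, with a Spearman's rho of 0.313 across 13705 genes, and with the GC offset the receptor median was -0.13 with 27 of 37 below 0. The part of tissue make-up and of base content in the genotype values was not tested.

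**Figure D4:**
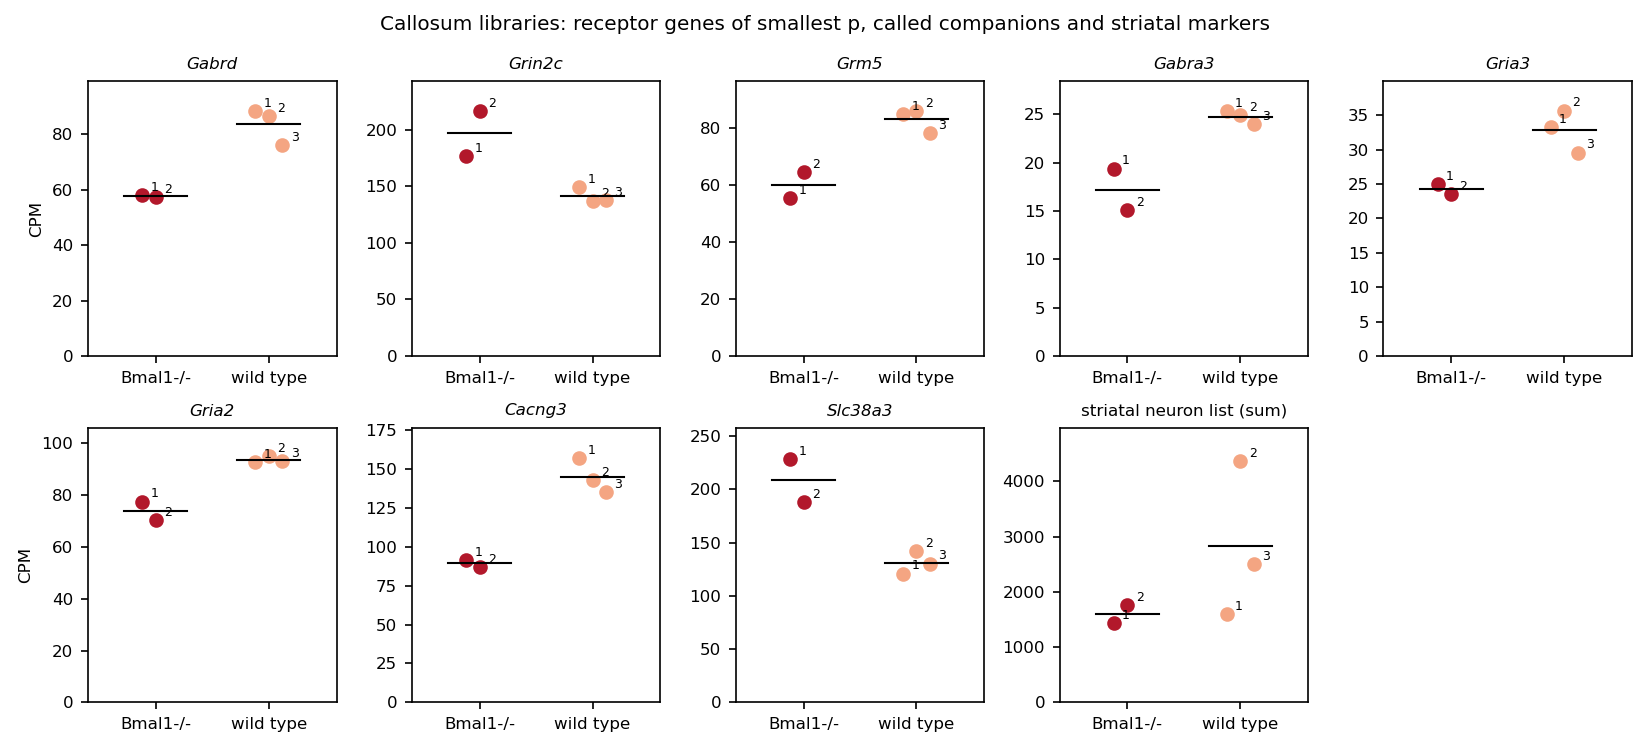
CPM in each callosum library labelled Bmal1-/- (2 points, left) and wild type (3 points, right) for the 6 receptor genes of smallest p, the 2 called companion genes Cacng3 and Slc38a3, and the sum of 12 striatal neuron markers, with replicate numbers beside points and a line at the mean. The genotypes do not overlap for any of the 8 genes. These were chosen by p from the same libraries, so the lack of overlap is no further support. Over all genes tested, 18.7% lay lower and 13.7% higher without overlap. Wild-type replicate 2 has the highest striatal sum at 4369 CPM.

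Genes that act with the receptors were read from a list of 37 accessory and scaffold genes and one of 26 genes of transmitter transport and synthesis. In callosum 0 of the 37 accessory genes tested were called higher and 1 lower, and 1 of 25 tested transport and synthesis genes was called higher and 0 lower, where 0.521% of all genes tested were called higher and 0.387% lower. The lower gene was Cacng3, an auxiliary subunit of AMPA receptors, at 91.3 and 87.2 CPM under Bmal1-/-, against 157, 143 and 135 CPM in wild type. Its log2 fold change was -0.68 ± 0.11 (SE, adjusted p = 0.0225 by edgeR). The higher gene was Slc38a3, a glutamine transporter of astrocytes, at 229 and 188 CPM under Bmal1-/-, against 121, 142 and 130 CPM in wild type, a log2 fold change of 0.68 ± 0.12 (edgeR adjusted p = 0.0411). Leaving out any 1 of the 5 libraries ended the call of Cacng3 (adjusted p = 0.0537 to 0.118) and leaving out any but Bmal1-/- replicate 2 that of Slc38a3 (0.0627 to 0.265), with the same signs. In the single model of 11 libraries both missed the threshold (0.143 and 0.194), and Slc38a3 also did with the GC offset (0.0675).

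Grip2 and Dlg1 among accessory genes and Slc7a11, Abat and Slc1a4 among transport genes were among those of next smallest p in callosum, and none passed. Abat, which breaks down GABA, had a log2 fold change of -0.47 ± 0.13 (SE, adjusted p = 0.179 by edgeR). Grip2, a scaffold of AMPA receptors, stood at 0.41 ± 0.13, and Slc7a11, the cystine and glutamate exchanger, at 0.79 ± 0.22. The median over the lists was -0.10 for accessory and -0.08 for transport and synthesis genes.

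In neurospheres no receptor gene passed between genotypes either. Grin2a, Grin3b, Grm2, Grm7, Grm8 and Gabrd were among those too low to test there. Of 30 tested, 0 were called by edgeR and 0 by DESeq2, where edgeR called 0.00716% of all 13968 genes tested. At an unadjusted p under 0.05 there were 3 of 30 (10%), where 3.02% of all genes had one. All 3 Bmal1-/- libraries lay below all wild-type libraries in 5 genes (16.7%, where 5.74% of all genes did) and above them in 2 (6.67%, where 6.28% did). The median log2 fold change was -0.08, with 18 of 30 below 0. Replicate 1 labelled Bmal1-/- stood apart, with 22.6% of its reads unmapped against 13.7% to 16.2% in the other neurosphere libraries. Markers of microglia, with a median log2 fold change of 0.59 and 5 of 6 tested above 0, summed to 185 CPM in that library, 79.0 and 43.2 CPM in the other libraries labelled Bmal1-/- and 67.4 to 75.4 CPM in wild type. Those of neuroblasts had a median of 0.44, with 6 of 7 tested above 0, and summed to 434 to 464 CPM under Bmal1-/-, against 381.5 to 415 CPM in wild type. Markers of cortical excitatory neurons went the other way, with a median of -0.46 and all 5 tested below 0. None of these markers was called, and their part in the receptor values was not tested. Across 13487 genes the genotype fold change fell with transcript length (Spearman's rho -0.582). Without replicate 1 labelled Bmal1-/- the median turned to 0.17, with 12 of 30 below 0, and with a length offset it was 0.07. Without wild-type replicate 3 it was 0.00. Wild-type replicate 1 also differed from replicates 2 and 3, in some genes in the same direction as Bmal1-/- replicate 1. Gabbr2 stood at 1.42, 5.11 and 7.45 CPM in Bmal1-/- replicates 1 to 3, and at 2.55, 4.34 and 7.54 CPM in wild type. Mki67, a progenitor marker, went opposite ways, at 241.7, 627.7 and 610.5 CPM under Bmal1-/- and 708.2, 575.6 and 512.3 CPM in wild type. The cause was not tested.

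Gabrg3, Gria4 and Grik4 had the smallest p in neurospheres, and for each the edgeR adjusted p was 0.798. Gabrg3, a gamma subunit, stood at 0.354, 0.786 and 0.570 CPM under Bmal1-/-, against 1.79, 1.18 and 1.15 CPM in wild type, a log2 fold change of -1.26 ± 0.40. Gria4 stood at 3.54, 5.46 and 5.57 CPM under Bmal1-/-, against 7.33, 7.14 and 8.34 CPM in wild type (-0.65 ± 0.25). Grik4, a kainate subunit, stood at 13.2, 12.7 and 14.5 CPM under Bmal1-/-, against 8.99, 9.94 and 10.6 CPM in wild type (0.46 ± 0.18). In all 3 the genotypes did not overlap, which is no further support for genes chosen by p from the same libraries. Without Bmal1-/- replicate 1 the values were -1.01, -0.47 and 0.47.

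Gabra4, Grin2b and Gria3 followed, with the same edgeR adjusted p of 0.798. Gabra4 stood at 3.41, 4.89 and 2.46 CPM under Bmal1-/-, against 13.1, 4.70 and 4.53 CPM in wild type, where replicate 1 alone was high and the groups overlapped (-1.05 ± 0.47). Grin2b stood at 1.15, 1.75 and 1.27 CPM under Bmal1-/-, against 1.92, 2.26 and 2.31 CPM in wild type (-0.64 ± 0.29), and at -0.07 with the length offset. Gria3 stood at 36.0, 63.1 and 59.2 CPM under Bmal1-/-, against 79.5, 70.4 and 71.5 CPM in wild type (-0.49 ± 0.23), with the lowest level in replicate 1 labelled Bmal1-/- and -0.27 without it. The AMPA median was -0.43 with that library, and -0.25 without it. Gria2 stood at 36.3, 103 and 130 CPM under Bmal1-/-, against 72.2, 103 and 133 CPM in wild type, and its log2 fold change of -0.19 ± 0.44 was 0.18 without it.

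No companion gene passed in neurospheres, of 33 tested accessory genes and 21 tested transport and synthesis genes. Cacng5, a relative of Cacng3, had the smallest p, with 36.1, 24.7 and 37.7 CPM under Bmal1-/- against 49.3, 58.9 and 54.8 CPM in wild type (log2 fold change -0.73 ± 0.20, SE, edgeR adjusted p = 0.798). Slc7a11 stood at 60.1, 134 and 112 CPM under Bmal1-/-, against 241, 174 and 157 CPM in wild type (-0.90 ± 0.31, 0.798). The other genes of smallest p were Dlg1, Shank1 and Homer2 among scaffolds, at -0.41, -0.49 and -0.40, and the transporters Slc38a2, Slc38a1 and Slc32a1, at -0.54, -0.61 and 0.65.

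**Figure D5:**
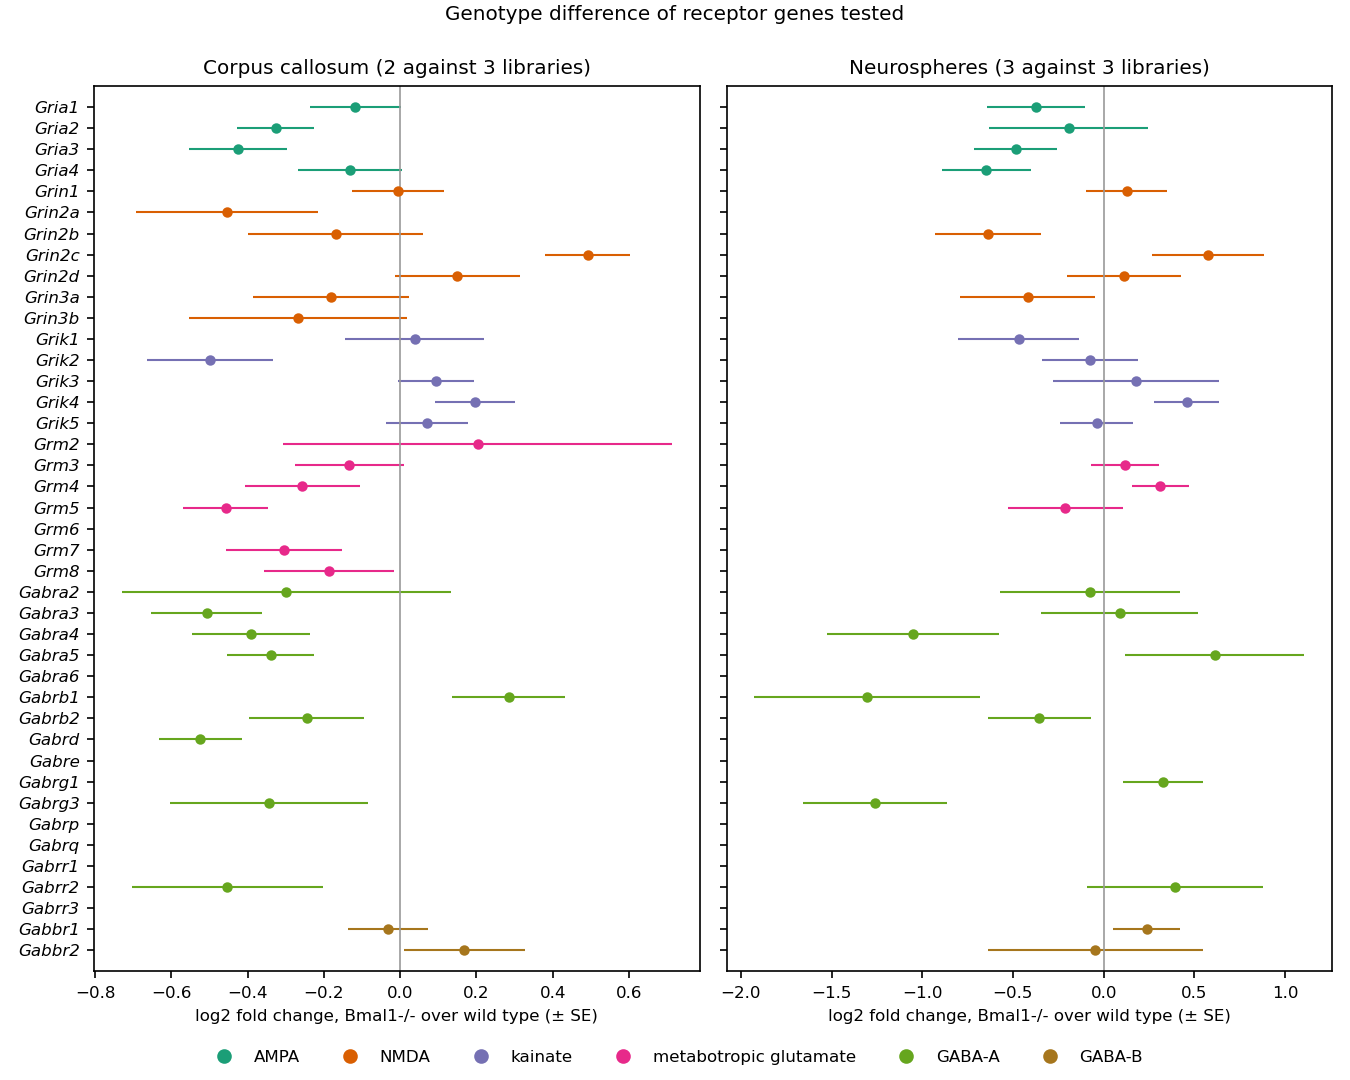
Log2 fold change of receptor genes, Bmal1-/- over wild type, with its SE as a horizontal bar, in callosum (left, 33 genes) and neurospheres (right, 28 genes, a wider horizontal scale), coloured by receptor family. Most callosum points lie left of 0 and Grin2c stands farthest to the right there, at 0.49, but no receptor gene passed in either source.

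The difference between the genotype effects of the sources was tested directly in the model of 11 libraries. Of 39 receptor genes 0 were called by edgeR, where 0.0131% of all 15322 genes tested were, and 2 had an unadjusted p under 0.05 (5.13%, where 4.28% of all genes did). These were Gabrb1, with an interaction of 1.57 ± 0.60 on the log2 scale (SE, adjusted p = 0.999 by edgeR), and Grm4, with -0.58 ± 0.24. Gabrb1 stood at 12.4 and 13.2 CPM under Bmal1-/- in callosum, against 9.94, 10.5 and 11.4 CPM in wild type. In neurospheres it stood at 0.0442, 0.524 and 0.526 CPM under Bmal1-/-, against 1.07, 0.814 and 0.843 CPM in wild type. Grin2c had positive values in both sources, 0.49 ± 0.11 in callosum and 0.57 ± 0.31 in neurospheres, with an interaction of -0.09 ± 0.38.

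Of the shares, none passed between genotypes. Grin2c took a larger share of the NMDA counts in every Bmal1-/- library than in any wild-type library of the same source. It was 8.14% and 9.60% in callosum labelled Bmal1-/-, against 6.22%, 7.10% and 6.18% in wild type, and 50.6%, 58.3% and 56.2% in neurospheres labelled Bmal1-/-, against 38.8%, 47.2% and 47.2% in wild type. The mean difference was 6.51 points, and an exact permutation test, two-sided, with genotype labels permuted within source gave p = 0.005, the smallest that 200 arrangements allow, and an adjusted p of 0.05 over 10 shares, so that a lone share could not go below 0.05. For Grm5 the difference, Bmal1-/- minus wild type, was -5.38 points (adjusted p = 0.075), and for Gabrd it was -2.003 points (0.167). The remaining 7 shares had adjusted p-values of 0.463 to 0.95. A small gene, Gm25837, overlaps Grin2c on the opposite strand, and the fold change of all genes moved with GC content, which is 62.1% in Grin2c.

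The promoters of the receptor genes were searched for CACGTG, the E-box that BMAL1 and CLOCK bind, which reads the same on both strands. Among RefSeq promoters of GRCm38.p6, from 250 bases before to 50 after a gene's start, 2187 of 27025 (8.09%) held it. Of the 32 receptor genes with a promoter in the table, 1 (3.12%) did. It was Grin1, with 2 copies that begin 181 and 85 bases before its start, shown as the member whose promoter holds the motif. The 250 bases before the start lie at chr2:25319188-25319437 on the minus strand, with the E-boxes in capitals.
Grin1: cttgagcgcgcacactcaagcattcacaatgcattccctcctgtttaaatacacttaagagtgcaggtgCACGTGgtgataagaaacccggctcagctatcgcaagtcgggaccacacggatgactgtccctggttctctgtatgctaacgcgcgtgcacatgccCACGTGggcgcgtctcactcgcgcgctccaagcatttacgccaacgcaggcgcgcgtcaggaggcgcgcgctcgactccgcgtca
Between genotypes the log2 fold change of Grin1 was -0.00 ± 0.12 in callosum (SE, adjusted p = 0.988 by edgeR) and 0.13 ± 0.22 in neurospheres (0.854). A match in letters does not show that a factor binds there, and its absence from the other windows says nothing of binding elsewhere.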

How the data were processed

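Gene counts per library were deposited by the authors as raw read counts for 24411 gene symbols. Reads were aligned with STAR 2.7.1a to mm10, per the submitters' processing notes, and no source used here names the annotation behind the counts. Counts that ignore strand were used. The 4 rows of unassigned reads entered neither library sizes nor tests. They covered unmapped reads (7.77% to 22.6%), reads outside genes (8.55% to 16.6%), ambiguous reads (0.772% to 1.40%) and reads with several positions. The first strand held 49.6% to 50.8% of gene reads, so reads where genes overlap on opposite strands cannot be assigned by strand. This touches 13 of the 45 members. Gene positions are from RefSeq GRCm38.p6, and lengths and GC content from the longest GENCODE M21 transcript.

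Each comparison was tested over all genes with edgeR 4.0.16 under R 4.3.3 (quasi-likelihood F test, TMM scaling, filterByExpr, robust dispersion, Benjamini-Hochberg adjustment, two-sided, called at an adjusted p under 0.05). SE is the log2 fold change divided by the square root of F. Printed CPM were scaled by TMM over all 11 libraries. The script recovered known changes in simulated counts. Shares were tested by exact permutation over libraries. Alternatives were DESeq2 1.42.0, RLE scaling, no filter, no robust dispersion, a single model of 11 libraries, a replicate block, each library left out and, added after the data were seen, offsets on GC content or length (lowess span 0.3). Conserved stretches came from mafft 7.526. Full values are given for the 6 receptor genes of smallest p per genotype comparison, the 6 called with the largest fold in each direction between sources, the leading shares of each family, and called companion genes with the 4 of smallest p. Genes named beside a sensitivity, position or sequence result were chosen after their values were seen. Some genes are not reported here by name and are not drawn, but remain in counts and medians. Members, lists and rules were chosen with earlier results of these data known.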

Additional observations from a re-analysis of the deposited data

How the results depend on the processing

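In callosum, the number of receptor genes called between genotypes was 0 by edgeR, 2 with DESeq2 (of 42 tested) and 1 with no filter (of 42 tested), and 0 under the other alternatives. In the other comparisons the number of receptor genes called in both directions together stayed within 1.5 times of the reported one under every alternative run. The number called lower between sources did not: against 4, it was 2 with the GC offset in both genotypes, and under Bmal1-/- 2 without either callosum library and 6 without neurosphere replicate 1. Of all genes tested, the main fits called 43.8% lower in wild type and 37.5% under Bmal1-/-, and with the GC offset 40.4% and 31.6% were. Between sources, the GC offset turned Grm5 (0.60 in wild type, 0.37 under Bmal1-/-), Grik2 (1.75 and 1.33) and Gria3 (1.49 and 1.55) upward and Grm4 downward (-0.45 and -0.97), by its own construction of a level that depends on base content.

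Same-numbered libraries did not deviate together in every pair. The correlations of their deviations were 0.276, -0.00265 and 0.284 for replicates 1 to 3 of neurospheres, and 0.0347 and 0.00329 for replicates 1 and 2 of callosum. Between sources they were 0.112 and 0.142 under Bmal1-/- and -0.0168, 0.0526 and -0.000777 in wild type. The replicate numbers were therefore not taken as pairs in the main tests. Any variation shared by neurosphere replicates 1 or 3 thus stays in the scatter of the neurosphere test. With a replicate block, 0 receptor genes were called between genotypes in callosum, 0 in neurospheres and 0 in the interaction, against 34 between wild-type sources and 34 between the sources labelled Bmal1-/-. Between sources the main fits called 85.8% of all genes tested in wild type and 72.6% under Bmal1-/-, so the counts of 34 describe only the genes tested.

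The callosum comparison rests on 2 libraries labelled Bmal1-/-, and a gene whose level is near 3 reads in a library has little room to show a fall. Over all genes, the count called in callosum was 322 with DESeq2, 224 with no filter and 33 in the single model, and 27 to 73 without wild-type replicates 2 or 3 or Bmal1-/- replicate 1, against 129. In neurospheres DESeq2 called 33 and the single model 19, against 1. Single-library exclusions left a lone library in no group but callosum labelled Bmal1-/-, where it is assumed to vary like the other group.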

Other observations

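Beyond the receptors, accessory and scaffold genes were mostly higher in callosum, with 27 of 37 tested called higher and 7 lower between wild-type sources (edgeR, adjusted p under 0.05), and a median log2 fold change of 2.20. Of all genes tested 42% were called higher and 43.8% lower. Genes of transmitter transport and synthesis were split, with 12 of 25 called higher and 11 lower, near the shares over all genes, and a median of 0.29. The transport list holds Slc1a3, a glutamate transporter gene of astrocytes, at 193 and 260 CPM in callosum labelled Bmal1-/- and 259 to 296 CPM in wild-type callosum, against 1544 to 2222 CPM in neurospheres labelled Bmal1-/- and 2088 to 2422 CPM in wild-type neurospheres, and Slc17a7, the vesicular glutamate transporter of cortical neurons, at 3321 and 4187 CPM (Bmal1-/-) and 2851 to 3559 CPM (wild type) in callosum, against 0.745 to 1.99 CPM (Bmal1-/-) and 1.13 to 1.86 CPM (wild type) in neurospheres. These genes were chosen after their values were seen. With the GC offset, 28 accessory genes were called higher and 6 lower, and 14 transport and synthesis genes higher and 9 lower, where 39.6% of all genes were called higher and 40.4% lower.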
